A study of Homo sapiens with 21 samples.

Results

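Vorinostat (SAHA) was compared with DMSO in the libraries labelled PC-9 EGFR-low, 3 of each, which are 6 of the 21 libraries of the series. PC-9 is a human lung adenocarcinoma cell line that carries an activating exon 19 deletion of EGFR. The EGFR-low cells were obtained from it by 6 rounds of flow cytometric sorting for low surface EGFR. They are a sorted population and not 1 clone, and they were maintained by repeated sorting. Cells were treated from 24 h after seeding with 1 µM SAHA or with the solvent DMSO for 72 h. The same 2 treatments of EGFR-high cells (6 libraries) and the cells without treatment (9 libraries, parental, EGFR-low and EGFR-high) serve only as reference here. The labels give the genotype as EGFR delE746-A750 in the first library of the series, and its last residue goes up by 1 with each library, to A765 to A767 under DMSO and A768 to A770 under SAHA in EGFR-low cells. Whether this running number is a true genotype was not tested, and all samples are taken here to share the exon 19 deletion of the line. That was not tested either, and most EGFR-low libraries of this comparison had a profile unlike that of untreated PC-9 cells, described below. The members are 12236 of 20111 listed genes, those that reached 1 FPKM in 3 or more of the 12 vorinostat and DMSO libraries. FPKM are fragments per kilobase of transcript, scaled to the mapped fragments of each library.

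Histone deacetylases (HDACs) remove acetyl groups from lysines of histones and other proteins, and vorinostat blocks the zinc-dependent members of this enzyme family. In cancer cells such inhibitors are known to raise histone acetylation, to induce the CDK inhibitor p21 (CDKN1A), linker histone H1.0, metallothioneins and thioredoxin-interacting protein, and to repress cell cycle genes. The study used vorinostat to raise EGFR in EGFR-low cells, so the comparison asks which transcripts differ after 72 h of the inhibitor and whether EGFR is among them. No gene was called in this comparison. The values below therefore describe how close the treated and control libraries were, which libraries set the differences that are seen, and how wide the intervals were.

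The libraries labelled EGFR-low did not have the expression profile of the untreated EGFR-low cells. A pair of gene sets shows this, chosen after the values were seen, and the 2 experiments were normalised separately, so levels set across them were not tested. Of the 20111 genes, 59 were under 1 FPKM in all 9 untreated PC-9 libraries and at least 10 FPKM in the 5 EGFR-low libraries of the vorinostat experiment other than DMSO replicate 1. A further 48 genes were at least 10 FPKM in all 9 untreated libraries and under 1 FPKM in the same 5. The counts by the same 2 rules were 0 and 0 for the 5 EGFR-high libraries other than DMSO replicate 3, a rule that needs the level in all 5 libraries. Among these 5, EGFR-high vorinostat replicate 1 held 28 of the 59 genes at 1 FPKM or more, with a median of 0.967 FPKM against 0.0667 to 0.0959 FPKM in the other 4, which held none of the 59 at that level. NKX2-1, a lung lineage transcription factor, was at 25.6, 51.1 and 37.9 FPKM in the EGFR-low DMSO libraries and 24.1, 48.7 and 43.8 FPKM in the vorinostat libraries, against no more than 0.0690 FPKM in any untreated library. LY96, a co-receptor of TLR4, was at 50.8, 49.3 and 39.9 FPKM under DMSO and 91.9, 49.3 and 39.9 FPKM under vorinostat, against at most 0.0605 FPKM in untreated cells. MAGEA3, a cancer-testis antigen, went the other way, at 106 to 143 FPKM in untreated EGFR-low cells and 0.337, 0.736 and 0.605 FPKM in the vorinostat-treated EGFR-low libraries. SFRP1, a secreted Wnt antagonist, was at 18.8 to 36.4 FPKM in untreated EGFR-low cells and at 0.0204 to 0.0558 FPKM in the 5 libraries.

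**Figure D1:**
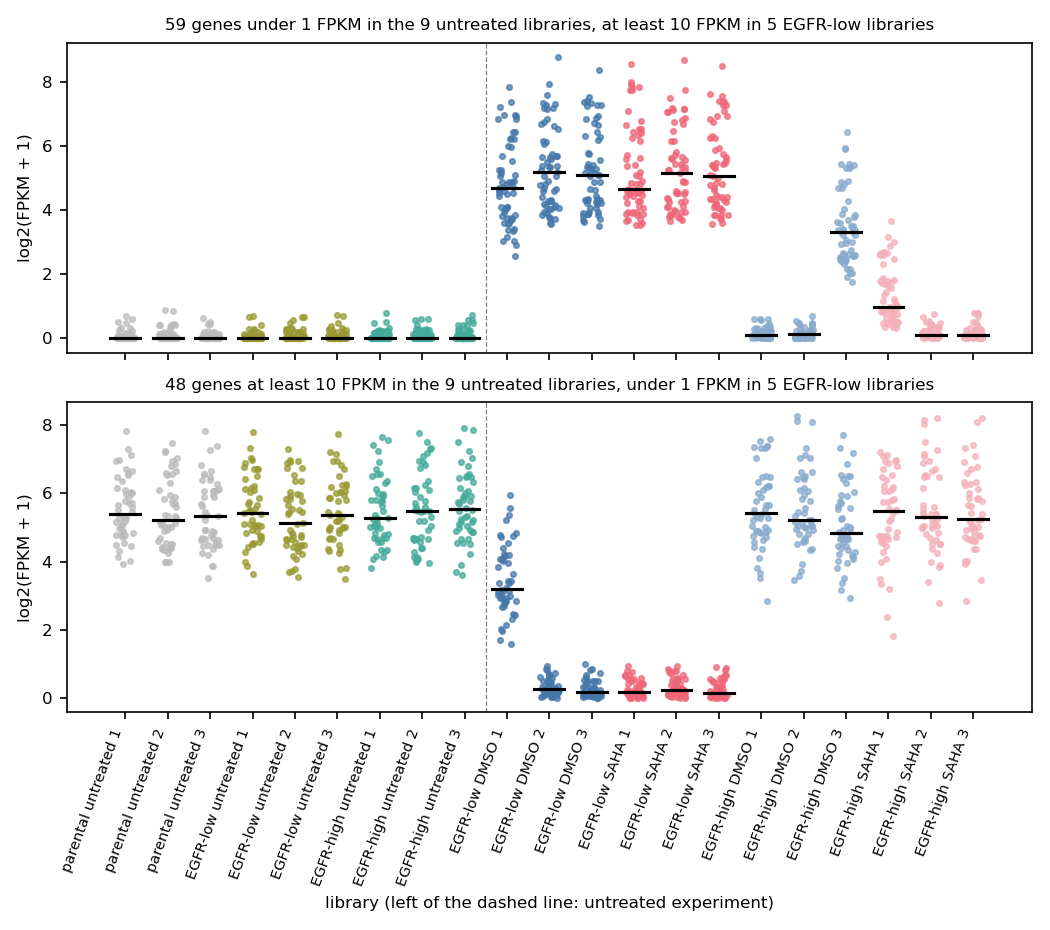
Log2(FPKM + 1) of the 59 genes (upper panel) and the 48 genes (lower panel) in each of the 21 libraries, where a point is 1 gene, the bar is the median and the dashed line separates the 2 experiments. The 5 EGFR-low libraries that define the sets differ from all untreated libraries, while EGFR-low DMSO 1 holds both sets, as does EGFR-high DMSO 3.

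Across the 12468 genes that reached 1 FPKM in 3 or more of the 21 libraries, log2(FPKM + 1) of the 5 EGFR-low libraries correlated with that of untreated EGFR-low cells at Pearson's r of 0.758 to 0.791. The 5 EGFR-high libraries correlated with untreated EGFR-high cells at 0.908 to 0.966, and the untreated EGFR-low and EGFR-high libraries with each other at 0.906 to 0.966. These coefficients are over genes of single libraries and describe likeness only. The origin of the different profile was not tested. The name EGFR-low is used below as the label gives it, and the treated and control libraries of this comparison, apart from DMSO replicate 1, shared the profile.

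DMSO replicate 1 held transcripts of both profiles. All 48 genes missing from the other EGFR-low libraries were at 1 FPKM or more in it. Their median was 8.22 FPKM against 0.122 to 0.194 FPKM in the others. All 59 genes of the first set, which untreated EGFR-low cells lacked, were present too, at a median of 24.8 FPKM. By a rule within the vorinostat experiment (under 1 FPKM in the 5 EGFR-low libraries and at least 10 FPKM in the 5 EGFR-high ones), 92 genes stood in DMSO replicate 1 at a median of 21.9% of their EGFR-high level, with a range of 10.1 to 33.5%, and at medians of 0.338 to 0.482% in the other EGFR-low libraries. In untreated EGFR-low cells 90 of the 92 had a mean of at least 1 FPKM and 63 of at least 10 FPKM. The medians of these means were 19.8 FPKM there and 28.3 FPKM in untreated EGFR-high cells. The 92 genes were thus not particular to EGFR-high cells. DMSO replicate 1 was at least 1 log2 unit above the other 5 EGFR-low libraries for 257 of the 12236 genes (2.1%) and below them for 8 (0.0654%). UCHL1, a neuronal ubiquitin hydrolase, was at 124, 1.04 and 0.832 FPKM under DMSO and 1.52, 1.05 and 0.932 FPKM under vorinostat. LCN2, a secreted iron-siderophore carrier, was at 119, 1.59 and 1.59 FPKM under DMSO and 1.33, 1.72 and 1.57 FPKM under vorinostat. EGFR-high DMSO replicate 3 showed the opposite pattern, with all 59 genes of the first set at 1 FPKM or more and a median of 8.99 FPKM.

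**Figure D2:**
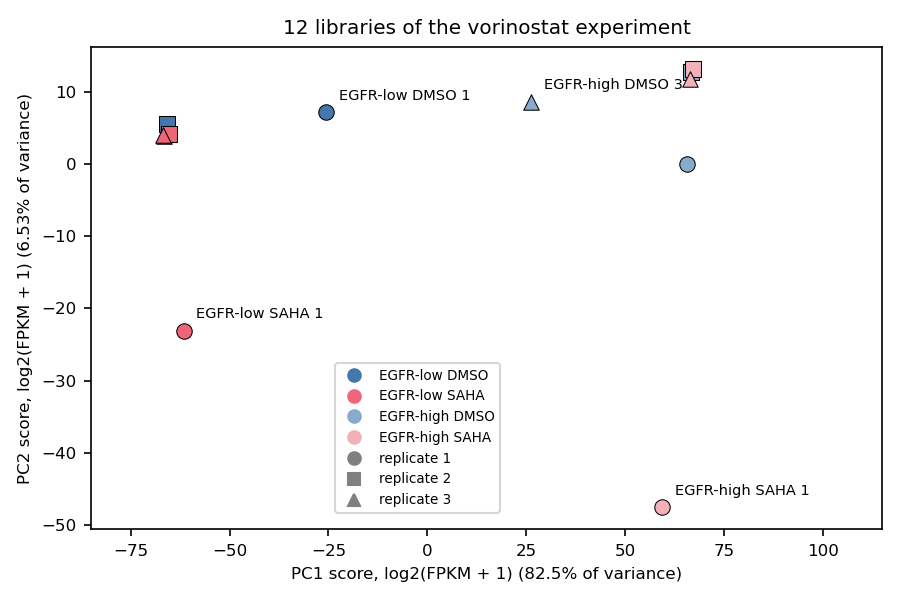
First and second principal component scores of the 12 libraries of the vorinostat experiment, on log2(FPKM + 1) of the 12236 genes, with groups by colour and replicates by shape. EGFR-low DMSO 1 lies at -25.6 on PC1 (82.5% of variance) between the other EGFR-low libraries (-61.6 to -66.7) and the EGFR-high ones, and both SAHA replicates 1 lie apart on PC2 (6.53%).

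A second library stood apart. Vorinostat replicate 1 lay at -23.1 on PC2, as did EGFR-high vorinostat replicate 1 at -47.5, and every other library of the experiment was above -0.1 on that axis. Mitochondrially encoded transcripts made up 22.2% and 24.2% of the FPKM of these 2 libraries, against 7.27 to 18.6% elsewhere in the experiment. Ribosomal protein genes made up 16.2% and 16.6% of them, against 18.8 to 24.3% elsewhere. The number of fragments behind each library is unknown, since the values are FPKM, and the sums of FPKM were 511011 to 582866 in the EGFR-low libraries. The epithelial identity of the cells was clear, with EPCAM at 267, 259 and 232 FPKM under DMSO and 282, 252 and 238 FPKM under vorinostat, and KRT7 at 400.1, 514 and 517 FPKM under DMSO and 551, 551 and 527 FPKM under vorinostat. The 7 fibroblast markers summed to 1.48 to 3.80 FPKM, the endothelial markers to 5.20 to 8.24 FPKM and the 4 erythroid markers to 0.215 FPKM in DMSO replicate 1 and 0 in the others. The 6 leukocyte markers summed to 12.1 FPKM in DMSO replicate 1 and 10.2 FPKM in vorinostat replicate 1, against 2.63 to 4.46 FPKM in the other 4. CSF1R, the receptor of macrophage colony-stimulating factor, was at 1.72, 1.77 and 1.63 FPKM under DMSO and 6.17, 2.19 and 1.92 FPKM under vorinostat. The part of such cells in the results was not tested.

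Replicates 2 and 3 were close across the treatments, and replicates 1 were not. DMSO replicate 2 and vorinostat replicate 2 differed by more than 1 log2 unit in 10 of the 12236 genes, and the replicates 3 of the treatments in 6. The 2 vorinostat libraries of replicates 2 and 3 differed in 11 genes, and the 2 corresponding DMSO libraries in 28. By contrast vorinostat replicate 1 differed from the other EGFR-low libraries in 346 to 592 genes, and DMSO replicate 1 from the others in 427 to 592. The 592 genes were between these 2 replicates 1, the most of any EGFR-low pair.

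In a limma fit of log2(FPKM + 1) over the 12 libraries, with a mean-variance trend and Benjamini-Hochberg adjustment, 0 of 12236 genes (0%) passed an adjusted p of 0.05, and the lowest adjusted p was 0.9999. At an unadjusted p under 0.05 there were 115 genes (0.94%), 44 higher (0.36%) and 71 lower (0.58%) with vorinostat. A share of 0.05 would be expected where no gene differed, so the fit may have been conservative. A count of 0 calls thus does not show that there was no response. Over the 6 EGFR-low libraries alone 295 genes had such an unadjusted p, and 732 with a replicate block. The median standard error was 0.13 over these 6 without the block, against 0.18 over 12 libraries. The reason was not tested. The 3 vorinostat libraries all lay above the 3 DMSO libraries for 462 genes (3.78%) and all below for 696 (5.69%). Counts of group members without overlap, given further on, are to be read against these 2 shares, and a count near them is no result about the group. Without DMSO replicate 1 the fit again called 0 genes (0%), with 70 genes at an unadjusted p under 0.05 (0.572%), and the groups then did not overlap for 1057 genes higher (8.64%) and 1553 lower (12.7%) with vorinostat. Without vorinostat replicate 1, 0 genes were called and 34 had an unadjusted p under 0.05, and with both libraries left out 0 and 22. The p-values measure the spread between these libraries, which the study describes as separate experiments.

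The data bounded most effects. The 95% confidence interval of the log2 fold change lay within 1 log2 unit of 0 for 11246 genes (91.9%), with a median standard error of 0.18. A difference of more than 2-fold on the log2(FPKM + 1) scale was thus outside the interval of most genes, while smaller ones were not resolved. This scale understates the change of genes at low FPKM. Of the 70 genes whose fold change was beyond 1 log2 unit, 64 were lower with vorinostat, and 56 of these 64 were at least 1 log2 unit above all 5 other EGFR-low libraries in DMSO replicate 1. Without that library 18 genes were beyond 1 log2 unit, 6 higher and 12 lower. Between replicates 2 and 3 of vorinostat and of DMSO, the mean difference exceeded 1 log2 unit for 1 gene and was below -1 for 3, and 6123 of the 12236 genes lay above 0. In bulk RNA a smaller share of cells with a transcript and less of it per cell cannot be told apart.

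EGFR was not called. Its values were 43.3, 17.7 and 19.3 FPKM in the DMSO libraries and 19.7, 16.1 and 18.2 FPKM in the vorinostat libraries. Only DMSO replicate 1, the library holding both profiles, was set apart, and the other 5 lay between 16.1 and 19.7 FPKM. The log2 fold change was -0.44 (95% confidence interval -1.20 to 0.33) and -0.04 without DMSO replicate 1, and the exact permutation p, two-sided, was 0.5 where 3 libraries against 3 can give no less than 0.1. EGFR was lower in all 3 same-numbered pairs, as were 2488 of the 12236 genes (20.3%), against 1711 (14%) that were higher in all 3. In EGFR-high cells EGFR was at 83.3, 152 and 109 FPKM under DMSO and 196, 101 and 207 FPKM under vorinostat, a log2 fold change of 0.52, and the difference between the 2 responses had an unadjusted limma p of 0.0778.

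Genes that HDAC inhibitors are known to move were taken as a readout of the drug in RNA. Of 22 genes listed as induced by HDAC inhibitors, all 22 were tested, none was called, 1 lay without overlap above the DMSO libraries and 3 below, beside 3.78% and 5.69% of all genes. Their median log2 fold change was -0.07, beside -0.03 for all genes tested, and -0.13 without DMSO replicate 1. CDKN1A, which encodes the CDK inhibitor p21, was at 18.6, 17.5 and 20.1 FPKM in the DMSO libraries and 27.6, 15.3 and 17.5 FPKM in the vorinostat libraries. The ranges overlapped, and the log2 fold change was 0.06 (95% confidence interval -1.29 to 1.40). H1F0, the gene of linker histone H1.0, was at 535, 490.2 and 637 FPKM under DMSO and 651, 488 and 614 FPKM under vorinostat, with a fold change of 0.07 (-0.51 to 0.66). TXNIP, which encodes an inhibitor of thioredoxin, was at 189, 100.2 and 149 FPKM under DMSO and 208, 97.4 and 172 FPKM under vorinostat, again overlapping. DHRS2, a mitochondrial reductase of the short-chain family, was the 1 gene of the list above DMSO in all 3 libraries, at 534, 472 and 536 FPKM in the DMSO libraries and 819, 539.7 and 608 FPKM in the vorinostat libraries. CDKN1C, HEXIM1 and RHOB, which encode the CDK inhibitor p57, an inhibitor of P-TEFb and a small GTPase, were those below. HEXIM1 was at 15.6, 13.9 and 13.6 FPKM in the DMSO libraries and 9.49, 11.8 and 11.4 FPKM in the vorinostat libraries, a log2 fold change of -0.37 (unadjusted limma p 0.0239).

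Other members, chosen after their values were seen, were high in vorinostat replicate 1 alone. CLU, a secreted chaperone, was at 40.3, 12.8 and 14.8 FPKM in the vorinostat libraries against 15.2, 15.5 and 12.2 FPKM under DMSO. The metallothionein MT1X, which binds zinc and copper, was at 327, 125 and 140.4 FPKM under vorinostat and 88.7, 147 and 124 FPKM under DMSO. MT2A, of the same family, was at 636, 309.7 and 289.6 FPKM under vorinostat and 269.8, 305 and 242 FPKM under DMSO. In replicates 2 and 3 their log2 differences from DMSO were 0.0027 for CLU, -0.03 for MT1X and 0.14 for MT2A, and the median over the 22 genes was -0.12 with 7 genes above 0. The 11 tested genes of 12 listed as repressed by HDAC inhibitors had a median of 0.08, with no member separated in either direction. When DMSO replicate 1 was left out, 4 of the 11 (BIRC5, CCNB1, CDC20 and AURKA) lay above DMSO without overlap (all genes 8.64%) and the median was 0.15. In replicates 2 and 3 alone 10 of the 11 were above 0, with a median of 0.20. MYC was at 122, 102 and 143 FPKM in the DMSO libraries and 126, 105 and 130.4 FPKM in the vorinostat libraries. CCND1, cyclin D1, was at 84.9, 67.2 and 69.7 FPKM under DMSO and 98, 66 and 72.7 FPKM under vorinostat. TYMS, thymidylate synthase and a common marker of HDAC inhibition, was at 29.4, 33.3 and 24.1 FPKM under DMSO and 24.4, 33.9 and 31.7 FPKM under vorinostat, and all 3 genes overlapped between the treatments.

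**Figure D3:**
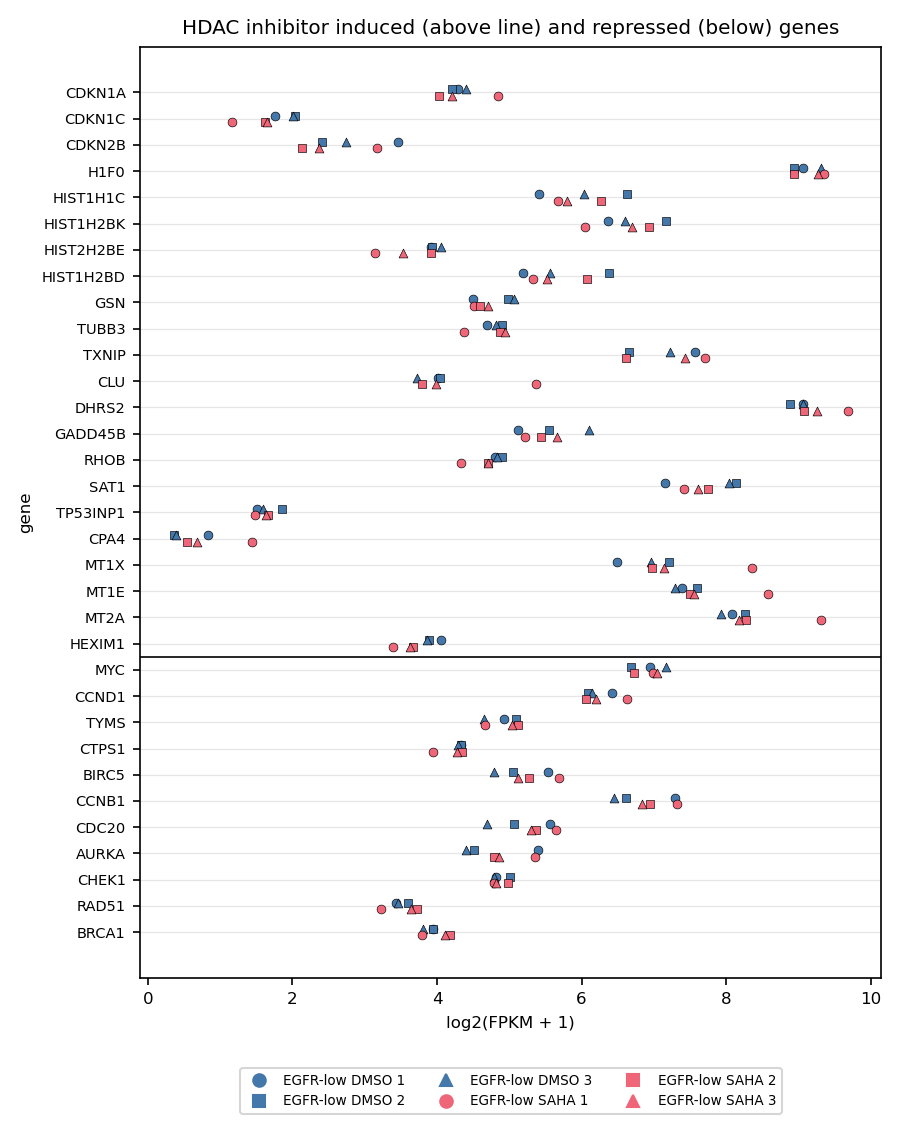
Log2(FPKM + 1) in each of the 6 EGFR-low libraries for the genes listed as induced and as repressed by HDAC inhibitors, 1 row per gene, with treatments by colour and replicates by shape. Most rows overlap, and CLU, MT1X and MT2A are set apart by vorinostat replicate 1.

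The targets of the drug overlapped between the treatments. All 11 zinc-dependent HDAC genes were tested, with log2 fold changes from -0.15 (HDAC7) to 0.21 (HDAC5), none separated between the treatments and all 11 confidence intervals within 1 log2 unit. HDAC1, a nuclear class I enzyme, was at 89.5, 86.8 and 71.3 FPKM in the DMSO libraries and 107, 88.4 and 84.9 FPKM in the vorinostat libraries (0.17, 95% confidence interval -0.12 to 0.47). HDAC1, HDAC5 and HDAC9 were higher in all 3 same-numbered pairs, as were 14% of all genes. The log2 fold change of HDAC9 turned to -0.17 without vorinostat replicate 1. HDAC6, the cytoplasmic tubulin deacetylase, was at 21.8, 27.6 and 20.3 FPKM under DMSO and 22.1, 27.3 and 22.4 FPKM under vorinostat. Of 31 acetyltransferases, bromodomain readers and corepressor subunits, 4 lay below DMSO without overlap (KAT5, MTA3 and TBL1XR1 among them) and 0 above (all genes 5.69% and 3.78%), with a median of -0.11 and of -0.01 without vorinostat replicate 1. Vorinostat replicate 1 was the lowest of the 6 libraries for 22 of the 31. KAT5, the acetyltransferase TIP60, was at 21.7, 21 and 19.7 FPKM in the DMSO libraries and 17.7, 19.6 and 19.2 FPKM in the vorinostat libraries.

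Among receptors, ligands and targets of growth factor signalling, 17 of 27 receptor tyrosine kinases passed the filter and none was called. MET, the receptor of hepatocyte growth factor, was at 55.7, 48.7 and 46.5 FPKM in the DMSO libraries and 132, 60.2 and 58.6 FPKM in the vorinostat libraries. All 3 vorinostat values were above DMSO and replicate 1 was more than 2-fold above the other 2 libraries of its group, with a log2 fold change of 0.62 (95% confidence interval 0.04 to 1.21, unadjusted limma p 0.0396) and 0.31 in replicates 2 and 3 alone. IGF1R was the other receptor above DMSO without overlap, at 9.74, 13.6 and 13.5 FPKM under DMSO and 14.6, 13.7 and 14.5 FPKM under vorinostat. ERBB2 was at 32.6, 46.9 and 43.6 FPKM under DMSO and 19.7, 39.2 and 42 FPKM under vorinostat, and ERBB3 at 27.6, 34.3 and 31.5 FPKM under DMSO and 19.7, 29.5 and 31.7 FPKM under vorinostat. AXL, a receptor linked to EGFR inhibitor tolerance, was at 10.8, 0.314 and 0.191 FPKM under DMSO and 0.561, 0.404 and 0.39 FPKM under vorinostat. Its fold change of -0.87 thus came with DMSO replicate 1 alone, the library holding both profiles, and was 0.21 without that library. Of the 5 tested EGFR ligands none was separated. AREG was at 20.6, 14 and 14.9 FPKM in the DMSO libraries and 38.1, 11.3 and 12.9 FPKM in the vorinostat libraries.

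ERK feedback genes such as DUSP4, SPRY4 and ETV5 report the output of the pathway downstream of EGFR. Of the 18 listed, 1 (FOS) was below DMSO without overlap and none above (all genes 5.69% and 3.78%), with a median of -0.01. DUSP6, the ERK phosphatase, was at 9.53, 2.25 and 3.76 FPKM in the DMSO libraries and 3.55, 1.65 and 2.72 FPKM in the vorinostat libraries. DUSP4 was at 19.1, 5.38 and 5.39 FPKM under DMSO and 21.8, 5.48 and 5.9 FPKM under vorinostat, high in replicate 1 of both treatments. Without DMSO replicate 1 the median of the 18 was 0.20, with 3 members above DMSO (DUSP4, DUSP5 and FOSL1, all genes 8.64%) and 2 below (EGR1 and FOS, all genes 12.7%). Without vorinostat replicate 1 the median was -0.23, the other sign.

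BCL2 family genes set the threshold of apoptosis. BCL2L11, which encodes the pro-apoptotic BIM, was at 8.81, 11.8 and 11.6 FPKM in the DMSO libraries and 10.7, 11.9 and 10.8 FPKM in the vorinostat libraries (0.06, 95% confidence interval -0.29 to 0.41). The treatments overlapped, and the sign turned to -0.06 without DMSO replicate 1. BMF, another BH3-only gene, was the 1 of 11 pro-apoptotic genes above DMSO without overlap, at 17.5, 28.8 and 23.5 FPKM in the DMSO libraries and 35.9, 33.6 and 32.5 FPKM in the vorinostat libraries, with a log2 fold change of 0.56 (unadjusted limma p 0.0439). Of the 4 tested anti-apoptotic genes, BCL2L1 (BCL-XL) and MCL1 lay below DMSO without overlap. BCL2L1 was at 91.3, 63.9 and 64.7 FPKM in the DMSO libraries and 60.8, 52.6 and 58.2 FPKM in the vorinostat libraries, and MCL1 at 90.3, 98.5 and 99 FPKM under DMSO and 78.3, 89.5 and 89.6 FPKM under vorinostat. BID, which links death receptors to mitochondria, was at 2.27, 9.73 and 12.7 FPKM under vorinostat and 11.2, 10.5 and 10.2 FPKM under DMSO, low in vorinostat replicate 1 alone. Among 15 death receptor, caspase and IAP genes, 2 lay below DMSO without overlap, BIRC2 among them, and 0 above. The shares of all genes, 5.69% below and 3.78% above, stand beside this count and those of the BCL2 family.

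TGFβ ligands are secreted in latent complexes and activated partly through integrins, and the study measured several of these genes. TGFB1 was at 6.15, 2.74 and 5.72 FPKM in the DMSO libraries and 0.56, 1.57 and 3.21 FPKM in the vorinostat libraries. The lowest control value lay below the highest treated one, so the groups overlapped, while TGFB1 was lower with vorinostat in all 3 same-numbered pairs, as were 20.3% of all genes. The log2 fold change was -1.14 (95% confidence interval -1.86 to -0.41, unadjusted limma p 0.00526, adjusted p 0.9999, exact two-sided permutation p 0.2), and -0.97 without DMSO replicate 1. In EGFR-high cells TGFB1 was at 10.8, 13.2 and 11.2 FPKM under DMSO and 15.7, 12.6 and 10.8 FPKM under vorinostat. TGFB2 was at 9.52, 8.63 and 9.9 FPKM in the DMSO libraries and 13.1, 7.93 and 9.01 FPKM in the vorinostat libraries (0.06, interval -0.57 to 0.70). TGFB3 was at 1.35, 1.91 and 1.93 FPKM under DMSO and 1.6, 2.03 and 1.93 FPKM under vorinostat, and LTBP1, the latent TGFβ binding protein, at 4.85, 4.87 and 4.41 FPKM under DMSO and 4.9, 3.84 and 3.26 FPKM under vorinostat. Of the 20 tested ligand, latency, receptor and SMAD genes, LTBP2 lay below DMSO without overlap and 0 above (all genes 5.69% below and 3.78% above), leaving out TGFBR3, which was under 0.1 FPKM in every EGFR-low library but DMSO replicate 1. The median was -0.09. LTBP2 was at 8.91, 4.19 and 4.81 FPKM in the DMSO libraries and 1.63, 3.86 and 3.31 FPKM in the vorinostat libraries.

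Of the 23 tested genes that TGFβ induces, TPM1, LTBP2 and THBS1 lay below DMSO without overlap and none above, beside 5.69% and 3.78% of all genes. The median was 0.01, 0.03 without DMSO replicate 1 and -0.27 without vorinostat replicate 1. TGFBI, an abundant matrix protein of these libraries, was at 388, 934 and 642 FPKM in the DMSO libraries and 780.4, 953 and 836 FPKM in the vorinostat libraries. ACTA2, smooth muscle actin, was at 1.75, 3.41 and 2.69 FPKM in the DMSO libraries and 1.73, 1.82 and 2.06 FPKM in the vorinostat libraries (-0.31, 95% confidence interval -0.91 to 0.30, exact two-sided permutation p 0.3). All 3 treated values lay below DMSO replicates 2 and 3, and DMSO replicate 1 was within the treated range. Of 11 tested smooth muscle genes, CNN3 and TPM1 lay below without overlap, and of 15 YAP and TEAD genes YAP1, TEAD3 and F3 did, beside 5.69% of all genes. The median of the YAP and TEAD genes was -0.11, 0.05 without DMSO replicate 1 and -0.14 without vorinostat replicate 1. F3, tissue factor, was at 25.6, 9.65 and 11.8 FPKM in the DMSO libraries and 8.67, 6.97 and 8.67 FPKM in the vorinostat libraries.

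Few epithelial and mesenchymal genes separated the treatments. CDH1, E-cadherin, was at 116, 128 and 138 FPKM in the DMSO libraries and 108, 111 and 121 FPKM in the vorinostat libraries (-0.17, 95% confidence interval -0.53 to 0.20). The 2 treatments overlapped in CDH1 and in FN1, fibronectin, which was at 18.3, 24.7 and 25.8 FPKM under DMSO and 33.6, 25.7 and 27 FPKM under vorinostat (0.32, interval -1.13 to 1.78). Of 23 epithelial genes 2 lay above DMSO without overlap (KRT7 and ELF3, all genes 3.78%) and 0 below, and of the 12 tested mesenchymal genes none was separated. VIM, vimentin, was at 8.18, 9.55 and 12.5 FPKM under DMSO and 20.1, 10.1 and 13 FPKM under vorinostat. S100A4, a calcium-binding protein of motile cells, was at 19.6, 10.1 and 4.78 FPKM in the DMSO libraries and 1.93, 5.74 and 4.02 FPKM in the vorinostat libraries, highest in DMSO replicate 1 and lowest in vorinostat replicate 1 (log2 fold change -1.25, unadjusted limma p 0.0311). ITGB3, the integrin β3 subunit, was at 4.34, 2.91 and 1.98 FPKM in the DMSO libraries and 7.38, 2.98 and 2.37 FPKM in the vorinostat libraries (0.28, interval -0.78 to 1.35), highest in vorinostat replicate 1. Its partner ITGAV was at 22.1, 24.1 and 26.7 FPKM under DMSO and 21.5, 20.3 and 22.4 FPKM under vorinostat. Within same-numbered pairs CDH1, ITGAV and ACTA2 were lower and ITGB3 and FN1 higher with vorinostat in all 3, beside 20.3% and 14% of all genes. Of 14 tested integrins ITGA7 lay above and ITGB8 below DMSO without overlap (all genes 3.78% and 5.69%). ITGB8, which with αV activates latent TGFβ, was at 1.24, 1.99 and 2.7 FPKM in the DMSO libraries and 0.129, 1.05 and 1.14 FPKM in the vorinostat libraries, a log2 fold change of -0.78 (unadjusted limma p 0.0714). Of 28 tested matrix genes, THBS1, COL6A1 and COL6A2 lay below and 0 above (all genes 5.69% and 3.78%).

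The cell cycle lists depended on the library left out. The 54 G2/M genes had a median log2 fold change of 0.17 with all 6 libraries, 2 of them above DMSO without overlap (CKS1B and HN1, all genes 3.78%). Their FPKM summed to 2653, 1974 and 1809.6 in the DMSO libraries and 2815, 2179.9 and 2194 in the vorinostat libraries. DMSO replicate 1 was thus above 2 of the 3 treated libraries, and both replicates 1 were above all others. Without DMSO replicate 1, 42 of the 54 genes lay above DMSO without overlap (all genes 8.64%) and the median was 0.38, yet none was called. Without vorinostat replicate 1 the median was 0.05. CCNB1, cyclin B1, was at 156, 97 and 86.1 FPKM in the DMSO libraries and 159, 122 and 113 FPKM in the vorinostat libraries, with a log2 fold change of 0.25 and of 0.50 without DMSO replicate 1. AURKA, a mitotic kinase, was at 41, 21.8 and 20.2 FPKM under DMSO and 40.1, 26.6 and 27.9 FPKM under vorinostat, and MKI67, a proliferation marker, at 28.4, 20.4 and 19.6 FPKM under DMSO and 29.9, 25.9 and 23.8 FPKM under vorinostat. In replicates 2 and 3 alone the median over the 54 genes was 0.24, with 52 above 0. In EGFR-high cells their median was -0.16.

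The 41 tested S phase genes had a median of 0.07, with 1 gene above DMSO without overlap (all genes 3.78%) and all 41 confidence intervals within 1 log2 unit. Without vorinostat replicate 1 the median was 0.18, and in replicates 2 and 3 alone it was 0.17 with 40 of 41 above 0. Among 19 tested cyclins, CDKs and CDK inhibitors, CDKN2D lay above and CDKN1C below DMSO without overlap (all genes 3.78% and 5.69%). CDKN2D, the inhibitor p19, was at 6.02, 4.44 and 3.48 FPKM in the DMSO libraries and 12.5, 6.22 and 6.15 FPKM in the vorinostat libraries, and CDKN1C at 2.38, 3.09 and 3.01 FPKM under DMSO and 1.23, 2.08 and 2.12 FPKM under vorinostat. Of 16 p53 targets 2 lay below DMSO (MDM2 and BTG2) and 0 above (all genes 5.69% and 3.78%). MDM2, the ubiquitin ligase of p53, was at 13.5, 10.7 and 13.2 FPKM in the DMSO libraries and 8.43, 9.95 and 10.1 FPKM in the vorinostat libraries.

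Clustered histone genes tended to be lower in the vorinostat libraries. Of the 33 tested of 71 listed, 3 lay below DMSO without overlap (HIST1H1D, HIST1H1E and HIST1H3D, all genes 5.69%) and 0 above, with a median of -0.22. Without DMSO replicate 1, 12 lay below (all genes 12.7%) and the median was -0.33. HIST1H2AC was at 28, 40.2 and 41.5 FPKM in the DMSO libraries and 16.2, 31.4 and 27.3 FPKM in the vorinostat libraries. HIST1H1E was at 3.79, 2.63 and 2.73 FPKM under DMSO and 1.9, 1.61 and 1.9 FPKM under vorinostat. In replicates 2 and 3 alone the median was -0.23, with 2 of 33 genes above 0. Without vorinostat replicate 1 it was -0.11. These genes are near-identical copies, so reads may be split between them, and their main transcripts lack poly(A) tails, which the library kit selects.

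Of 6 tested metallothioneins, MT1A and MT1H lay above DMSO without overlap (all genes 3.78%), the median was 0.48 (0.16 without vorinostat replicate 1) and vorinostat replicate 1 was the highest library for 5. MT1A was at 5.02, 7.97 and 6.01 FPKM in the DMSO libraries and 26.4, 8.23 and 8.31 FPKM in the vorinostat libraries. The copies of this family also share sequence. The 13 mitochondrially encoded genes were highest in vorinostat replicate 1 in all 13 cases, with a median of 0.34 (0.42 without DMSO replicate 1 and 0.02 without vorinostat replicate 1). MT-CO3, MT-ATP6 and MT-ATP8 were listed at 0 in DMSO replicate 1 and were among the most abundant transcripts in the other 5 libraries, so their fold changes are not given. MT-CO1 was at 5106, 2741 and 6429 FPKM in the DMSO libraries and 8304, 4612 and 4966 FPKM in the vorinostat libraries. Ribosomal protein genes, 82 tested, had a median of -0.02 and all 82 intervals within 1 log2 unit.

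Of 17 tested genes of MHC class I and antigen processing, 6 lay above without overlap (B2M, TAP1, TAP2, NLRC5 and ERAP2 among them) and 0 below (all genes 3.78% and 5.69%), with a median of 0.19. NLRC5, the transactivator of MHC class I, was at 3.58, 3.08 and 3.22 FPKM in the DMSO libraries and 6.78, 4.21 and 4.08 FPKM in the vorinostat libraries (unadjusted limma p 0.0683). B2M, the invariant light chain, was at 401, 454 and 456 FPKM under DMSO and 519, 485 and 514 FPKM under vorinostat. Without DMSO replicate 1 6 lay above (all genes 8.64%), and the median was 0.08. Without vorinostat replicate 1 it was 0.21. In EGFR-high cells the median was -0.11. HLA genes are alike in sequence, so their reads may be shared. Of 6 tested MHC class II genes HLA-DMA and HLA-DMB lay above (all genes 3.78%). CD74, the invariant chain, was at 9.25, 3.73 and 6.47 FPKM under DMSO and 0.628, 4.82 and 7.82 FPKM under vorinostat.

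Of 25 tested interferon-stimulated genes, 5 lay above DMSO without overlap (IFIT1, IFIT2, IFIT3, IRF1 and IFI44) and 0 below, beside 3.78% and 5.69% of all genes. The median of 0.07 was -0.09 without DMSO replicate 1 and 0.26 without vorinostat replicate 1, so its sign depended on the library left out. IFIT1, an RNA-binding antiviral protein, was at 8.91, 9.27 and 8.61 FPKM in the DMSO libraries and 14.5, 11.8 and 12.7 FPKM in the vorinostat libraries (0.49, 95% confidence interval -0.18 to 1.16). IFIT3 was at 17.2, 16.4 and 15.6 FPKM under DMSO and 23.2, 21.1 and 21.7 FPKM under vorinostat. The 3 IFIT genes lie next to each other in the genome and are not independent. IFITM3, an abundant member of the list, was at 370.3, 855 and 689.5 FPKM in the DMSO libraries and 235, 744 and 738 FPKM in the vorinostat libraries, lowest in both replicates 1. In EGFR-high cells the median of the list was -0.30 and the fold change of IFIT1 was -0.47. Of 16 tested ligands of NK and T cell receptors, PVRL2 lay below DMSO and none above (all genes 5.69% and 3.78%). CD274, which encodes PD-L1, was at 3.61, 3.93 and 3.99 FPKM in the DMSO libraries and 6.07, 3.46 and 3.48 FPKM in the vorinostat libraries, and MICA, a ligand of NKG2D, at 6.76, 5.08 and 5.79 FPKM under DMSO and 9.09, 5.42 and 6.65 FPKM under vorinostat. None of 13 tested cytokines was separated. CCL2, CXCL2 and IL18 were high in vorinostat replicate 1 alone, with IL18 at 82.5, 29.2 and 33.1 FPKM under vorinostat and 35.8, 29.9 and 30.6 FPKM under DMSO.

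**Figure D4:**
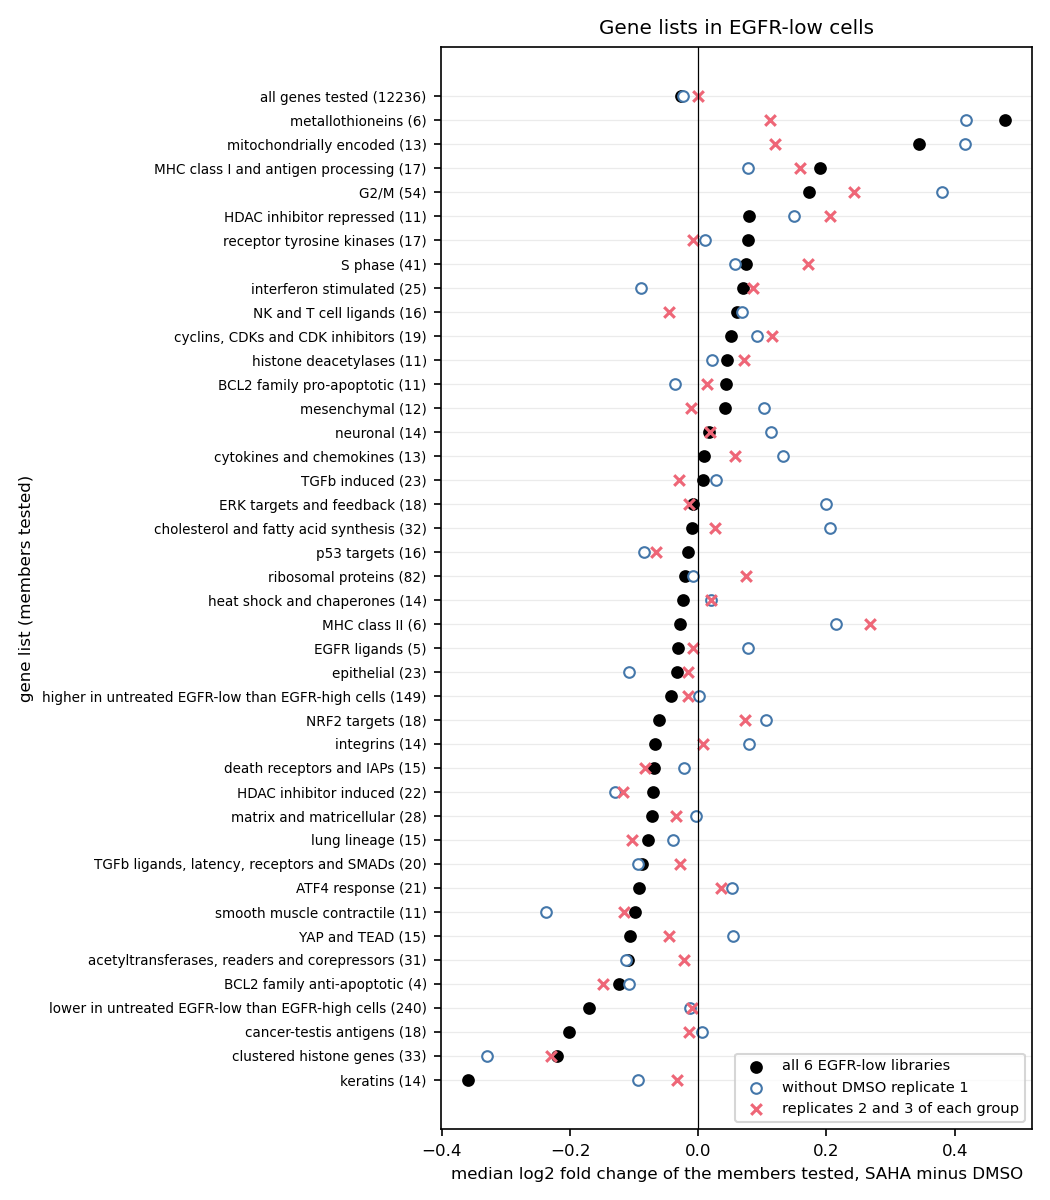
Median log2 fold change, SAHA minus DMSO, of the tested members of each gene list in EGFR-low cells, with all 6 libraries (black), without DMSO replicate 1 (open) and for replicates 2 and 3 of each group (crosses). Lists to the right of 0 by all 3 measures include G2/M, S phase, MHC class I, metallothionein, mitochondrially encoded and HDAC inhibitor repressed genes. Those to the left include clustered histone, smooth muscle and HDAC inhibitor induced genes. Medians without vorinostat replicate 1 are not drawn, and no member of any list was called.

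Most lineage and tumour antigen genes overlapped between the treatments. NKX2-1 overlapped between them, with a log2 fold change of 0.02, and SOX2, another lineage factor, was at 50.2, 107 and 77.6 FPKM in the DMSO libraries and 51.4, 86.4 and 79.9 FPKM in the vorinostat libraries. Of 15 tested lung lineage genes TP63 lay below DMSO without overlap (all genes 5.69%). It was at 10.1, 5.46 and 9.42 FPKM in the DMSO libraries and 3.99, 3.26 and 4.89 FPKM in the vorinostat libraries. Of 14 tested neuronal genes, a class that the corepressor REST and its HDACs hold silent, 3 lay above without overlap, VGF and GRIN1 among them (all genes 3.78%). VGF was at 2.59, 2.73 and 2.78 FPKM in the DMSO libraries and 13.1, 3.71 and 2.86 FPKM in the vorinostat libraries, highest in vorinostat replicate 1. In DMSO replicate 1, 7 of 18 tested cancer-testis antigens were at least 1 log2 unit above the other 5 libraries, and the median of -0.20 was 0.01 without it. MAGEA12 lay below DMSO without overlap (all genes 5.69%) and was under 1 FPKM in those 5 libraries. The XAGE1 copies, which share sequence, overlapped, with XAGE1A at 113, 146 and 153 FPKM in the DMSO libraries and 215, 133 and 154 FPKM in the vorinostat libraries. Of 14 tested keratins KRT7 lay above and KRT16 below DMSO without overlap (all genes 3.78% and 5.69%). KRT16 was under 1 FPKM in the 5 EGFR-low libraries other than DMSO replicate 1. The keratins had a median of -0.36 and of -0.09 without DMSO replicate 1.

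Metabolic and stress lists held no member without overlap in either direction when all 6 libraries were used. These were 32 genes of cholesterol and fatty acid synthesis, 21 of the ATF4 response, 18 NRF2 targets and 14 heat shock genes, with medians of -0.09 to -0.01. Without DMSO replicate 1 the medians were 0.21 for cholesterol and fatty acid synthesis, with 3 members above DMSO and 1 below without overlap (all genes 8.64% and 12.7%), 0.05 for ATF4, 0.11 for NRF2 and 0.02 for heat shock. Without vorinostat replicate 1 they were -0.18, -0.12, -0.14 and 0.0012 in the same order. HMGCS1, a sterol-regulated enzyme, was at 114, 37.3 and 29.4 FPKM in the DMSO libraries and 108, 35 and 32.6 FPKM in the vorinostat libraries, high in both replicates 1. NQO1, an NRF2 target, was at 388, 391 and 325 FPKM under DMSO and 222, 364 and 352 FPKM under vorinostat. All 14 heat shock intervals lay within 1 log2 unit.

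A small group of genes had no overlap between the treatments and an unadjusted limma p under 0.05 both with and without DMSO replicate 1. They were singled out after their values were seen, so their p-values are a description. Groups without overlap stay so when a library is left out, and both fits share all other libraries. The fit without DMSO replicate 1 is thus no separate check. There were 21, of which 14 were lower and 7 higher with vorinostat, and for 18 of them vorinostat replicate 1 was the farthest of the treated libraries from DMSO. JUN, an AP-1 subunit and immediate early gene, had the lowest unadjusted p of all genes. It was at 19.1, 12.4 and 18.3 FPKM in the DMSO libraries and 8.07, 9.0 and 10.0 FPKM in the vorinostat libraries, a log2 fold change of -0.79 (95% confidence interval -1.16 to -0.43, unadjusted limma p 0.000533, adjusted p 0.9999), and in replicates 2 and 3 alone the difference was -0.62. FOS, its partner, was at 5.47, 4.04 and 4.53 FPKM in the DMSO libraries and 2.15, 2.77 and 3.04 FPKM in the vorinostat libraries (-0.64, interval -1.07 to -0.20). In EGFR-high cells JUN was at 36.1, 34.8 and 34.4 FPKM under DMSO and 40.4, 33.7 and 47 FPKM under vorinostat, and FOS at 4.65, 3.59 and 6.14 FPKM under DMSO and 6.49, 4.6 and 7.08 FPKM under vorinostat, and both genes overlapped between the treatments there.

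IGFBP3, a secreted binding protein of insulin-like growth factors, was at 48.5, 15.1 and 9.53 FPKM in the DMSO libraries and 1.75, 3.59 and 6.5 FPKM in the vorinostat libraries, the largest difference among the 21 (-2.16, 95% confidence interval -3.27 to -1.04, -1.51 without DMSO replicate 1, -1.15 in replicates 2 and 3 alone). In EGFR-high cells it was at 165, 140.3 and 164 FPKM under DMSO and 434, 223 and 214 FPKM under vorinostat, the opposite direction. The difference of the responses had an unadjusted limma p of 0.00151. No gene was called for that difference, the lowest adjusted limma p of all genes being 0.9993. DMSO replicate 1 and the choice of the gene by its EGFR-low values both enter this p. EZR, which links actin to the membrane, was at 248, 222 and 232 FPKM in the DMSO libraries and 103, 188 and 187 FPKM in the vorinostat libraries. S100A14, a calcium-binding protein of epithelia, was at 36.9, 16.4 and 14.8 FPKM in the DMSO libraries and 2.63, 11.3 and 10.3 FPKM in the vorinostat libraries, and CAMK2N1, an inhibitor of CaM kinase II, at 31.2, 21.5 and 20.8 FPKM under DMSO and 7.57, 17.8 and 16.8 FPKM under vorinostat. The other lower genes were SCD5, CACNG4, COL6A2, KCNN4, ARHGAP29, SDK1, CDKN1C and HIST1H3D.

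Among the 7 higher genes, SLC37A2, a sugar phosphate transporter, was at 7.73, 12.1 and 10.7 FPKM in the DMSO libraries and 19.5, 18.8 and 15.4 FPKM in the vorinostat libraries (0.77, 95% confidence interval 0.32 to 1.22). ANKRD29 was at 1.51, 2.41 and 1.87 FPKM in the DMSO libraries and 9.62, 3.73 and 2.73 FPKM in the vorinostat libraries, and FGGY, a carbohydrate kinase, at 5.28, 5.58 and 5.29 FPKM under DMSO and 10.0, 6.85 and 6.5 FPKM under vorinostat. The others were MET, TMEM100, TIAF1 and RP11-201K10.3. Of the 21 genes 3 had the same direction in the EGFR-high response, and 9 of the 14 lower ones were called higher in EGFR-high than in EGFR-low cells under DMSO. Of all 71 genes lower at an unadjusted p under 0.05, 52 were called higher in EGFR-high cells under DMSO, against 1 of the 44 higher genes and 2527 (20.7%) of all genes tested. DMSO replicate 1 held transcripts that the other EGFR-low libraries lacked, and their part in these values was not tested.

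**Figure D5:**
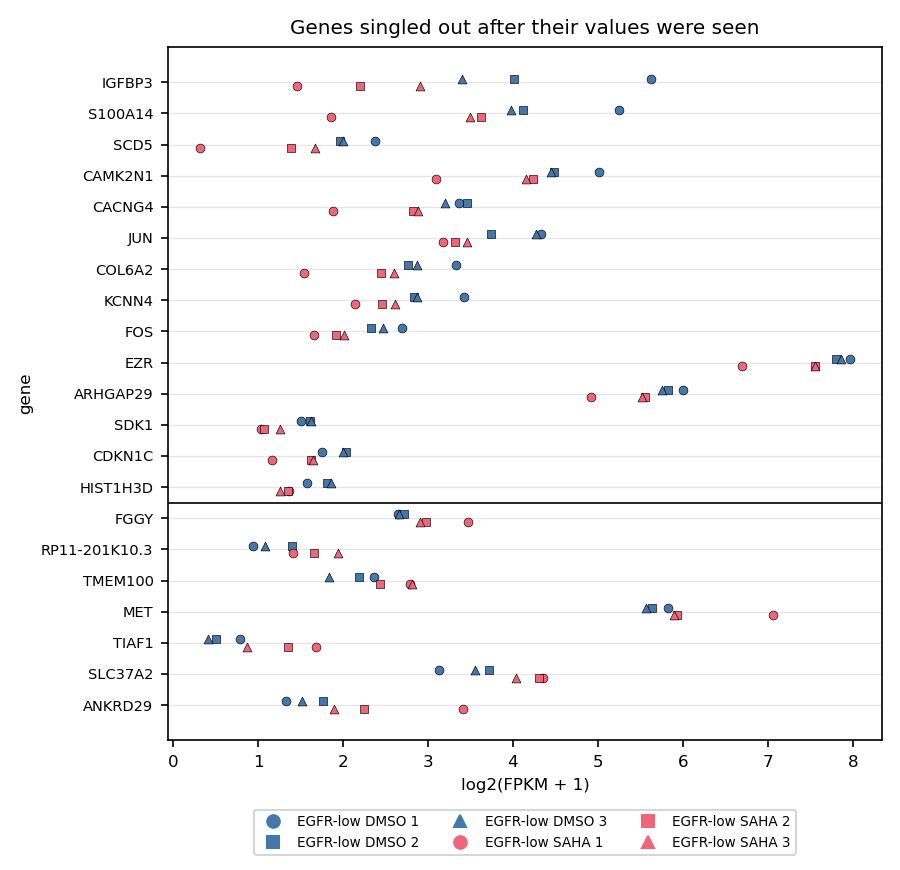
Log2(FPKM + 1) of the 21 genes singled out after their values were seen, in each of the 6 EGFR-low libraries, sorted by log2 fold change. For most of the 14 lower and 7 higher genes vorinostat replicate 1 is the point farthest from DMSO.

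Vorinostat replicate 1 differed from the other EGFR-low libraries in fewer genes than DMSO replicate 1 did. It was at least 1 log2 unit above all 5 other EGFR-low libraries for 49 genes (0.4%) and below for 65 (0.531%), whereas vorinostat replicates 2 and 3 were above for 0 and 1 gene. IL24, a cytokine of the IL-10 family, was at 39.7, 3.63 and 3.58 FPKM under vorinostat and 3.16, 2.42 and 2.34 FPKM under DMSO, so that all treated values lay above the controls but only replicate 1 was far from them. STEAP4, a metalloreductase, was at 20.4, 2.81 and 1.49 FPKM under vorinostat and 3.48, 1.74 and 1.09 FPKM under DMSO, and UPP1, uridine phosphorylase, at 129, 35.7 and 61.3 FPKM under vorinostat and 44.3, 26.9 and 53.5 FPKM under DMSO. In both the other treated libraries overlapped with DMSO. On the low side were AQP3, an aquaglyceroporin, at 4.18, 30.4 and 21.5 FPKM under vorinostat and 16.3, 42.8 and 26.9 FPKM under DMSO, and CRABP2, a retinoic acid binding protein, at 12.6, 69.5 and 51.4 FPKM under vorinostat and 42.2, 105 and 58.3 FPKM under DMSO. KLK6, a secreted serine protease, was at 1.57, 10.8 and 10.6 FPKM under vorinostat and 79.1, 16.9 and 12.6 FPKM under DMSO. It was highest in DMSO replicate 1 and lowest in vorinostat replicate 1, so both unusual libraries entered its fold change of -1.93 (-1.15 without DMSO replicate 1).

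EGFR-high vorinostat replicate 1 stood apart in part of the same genes. This library also held 28 of the 59 genes described above at 1 FPKM or more. Their part in the genes it shares with EGFR-low vorinostat replicate 1 was not tested. Of the 49 genes high in EGFR-low vorinostat replicate 1, 7 were also high in it (14.3% of the 49 and 6.86% of the 102 of that library), among them IL18, WIPI1, HSPB8 and MT1X. Of the 65 low ones 11 were also low in it (16.9% of the 65 and 6.79% of its 162), among them ALDH3A1, NUPR1, ASS1 and BID. HSPB8, a small heat shock protein, was at 5.02, 0.637 and 1.08 FPKM under vorinostat and 0.726, 0.794 and 0.926 FPKM under DMSO. Its EGFR-high values were 4.85, 0.44 and 0.207 FPKM under vorinostat and 0.423, 0.287 and 0.55 FPKM under DMSO. NUPR1, a stress-response cofactor that was low in both, was at 2.47, 19.8 and 16.5 FPKM under vorinostat and 16.5, 15 and 19.9 FPKM under DMSO in EGFR-low cells, and at 0, 14.7 and 32.8 FPKM and 6.92, 23.2 and 10.7 FPKM in EGFR-high cells. Across the 12236 genes the deviations of the 2 libraries from the mean of the other 5 libraries of their cells correlated at Pearson's r of 0.373, a description of 2 libraries that share a replicate number. What set these libraries apart was not tested.

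The response of EGFR-low cells was then set beside that of EGFR-high cells. In EGFR-high cells 0 genes (0%) were called and 409 (3.34%) had an unadjusted p under 0.05. The test of the difference between the 2 responses called 0 genes (0%), with 215 (1.76%) at an unadjusted p under 0.05. The same fit called 6334 genes (51.8%) between the cell populations under DMSO, 3807 higher (31.1%) and 2527 lower (20.7%) in EGFR-low, so the libraries resolved differences between the 2 profiles. The untreated EGFR-low cells differed from untreated EGFR-high cells in 431 called genes (3.81% of the 11305 tested there), 183 higher (1.62%) and 248 lower (2.19%). The 149 tested here of those higher in EGFR-low cells had a median log2 fold change with vorinostat of -0.04, with 3 above and 12 below DMSO without overlap (all genes 3.78% and 5.69%), and 3 of the 12 were under 1 FPKM in every EGFR-low library but DMSO replicate 1. The 240 tested of those lower in EGFR-low cells had a median of -0.17, with 2 above and 27 below, 10 of the 27 under 1 FPKM in the same 5 libraries, and of -0.01 without DMSO replicate 1, in which 52 of them were at least 1 log2 unit above the other EGFR-low libraries.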

How the data were processed

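PC-9 cells were grown in RPMI with serum, and poly(A) RNA was sequenced from Kapa mRNA Hyper Prep (Roche) libraries. The submitters' processing notes name STAR 2.5.1b, Cufflinks 2.2.1, DESeq2 1.10.1 and the human build hg19, without their order. The values deposited by the authors are non-integer and were taken as FPKM, from the values and from Cufflinks, although their naming speaks of gene counts. No read counts were recovered, so depth and counting error are unknown and no count model was used. The vorinostat and the untreated experiment are separate tables, normalised separately, and tests were made only within a table.

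Genes were kept that reached 1 FPKM in 3 or more of 12 libraries (12236 of 20111, of which 2205 were at 0 throughout). Log2(FPKM + 1) was fitted with limma 3.58.1 (R 4.3.3, trend) with 1 mean per group over the 12 libraries, and p-values were Benjamini-Hochberg adjusted over all genes at a threshold of 0.05. Confidence intervals are at 95%. Single study genes were also given an exact two-sided permutation test, whose smallest p is 0.1 with 3 libraries against 3. Treatments overlapped unless all values of one lay beyond all values of the other. Lists were described by counts and medians, with Python 3.11.15, pandas 2.3.3 and numpy 2.4.6, and drawn with matplotlib 3.10.9. The scripts were tested on simulated data. That check of the code set no number of changes to be found at the full spread of these libraries.

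The genes named with full values were the study's own genes (EGFR, ACTA2, BCL2L11, CDH1, TGFB1, TGFB2, TGFB3, ITGB3, ITGAV, FN1, LTBP1 and HDAC1 to HDAC11) and up to 10 called genes per direction, up to 3 called members per list and up to 5 called differences per direction, of which there were none. All other genes named were chosen after their values were seen. The members and lists were chosen with earlier results of these data known, and the lists of untreated cells were chosen in this series. Replicate numbers paired the EGFR-low libraries: after the group mean was taken off, same-numbered DMSO and vorinostat libraries had a Pearson's r across genes of 0.267, 0.302 and 0.329. The EGFR-high libraries were not paired in this way, with same-numbered r of 0.0597, 0.189 and -0.143. There DMSO replicate 2 and vorinostat replicate 3 had an r of 0.321. Alternatives covered the scaling, filter, pseudocount, library weights, the replicate block, the libraries fitted and each library left out in turn. Some list members counted in the totals are not reported here by name.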

Additional observations from a re-analysis of the deposited data

How the results depend on the processing

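The EGFR-low comparison called 0 genes under every alternative run except without a filter on low values, where 1 gene was called. That gene, AC114494.1, was listed at 0 in all DMSO libraries and at 0.118, 0.0941 and 0.0939 FPKM with vorinostat (limma adjusted p 0.000919), and it also gave the 1 called difference of the responses without the filter (adjusted p 0.0213). Leaving out each library in turn gave 0 calls in all 3 vorinostat comparisons. With a replicate block 0 genes were called in EGFR-low cells, with 194 genes at an unadjusted p under 0.05 over 12 libraries and 732 over the 6 EGFR-low libraries, and the block changed no call of the vorinostat comparisons. The 431 genes called in untreated cells, EGFR-low against EGFR-high, became 660 without a filter, 206 with at least 5 FPKM, 1382 with library weights, 965 with a replicate block, and 205 to 337 with 1 library left out. Of 850 values of the 43 named genes under alternatives, 0 were called and 29 had the other direction, and the lowest adjusted p was 0.303. In the EGFR-low comparison the number of genes at an unadjusted p under 0.05 ran from 22 to 732 over the alternatives. The cause of these shifts was not tested.

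Log2 fold changes that turned with library weights were -0.12 (TGFB2), 0.093 (HDAC7) and 0.017 (HDAC8). With both replicates 1 left out, a setting chosen after seeing the data, they were -0.035 (BCL2L11), -0.12 (TGFB2), 0.20 (HDAC7) and 0.018 (HDAC8). Over the EGFR-low libraries alone without DMSO replicate 1, also chosen after seeing the data, they were -0.064 (BCL2L11), -0.036 (TGFB3), 0.021 (HDAC2) and -0.017 (HDAC10). With 1 library left out the log2 fold changes ranged from -0.064 to 0.13 for BCL2L11, -0.13 to 0.20 for TGFB2, -0.036 to 0.13 for TGFB3, -0.11 to 0.54 for ITGB3, -0.18 to 0.021 for HDAC2, -0.066 to 0.27 for HDAC4 and -0.048 to 0.17 for HDAC6. The ranges were -0.31 to 0.072 for HDAC7, -0.19 to 0.0039 for HDAC8, -0.17 to 0.40 for HDAC9, -0.11 to 0.19 for HDAC10 and -0.24 to 0.064 for HDAC11.

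The comparison is limited by 3 libraries per group, by DMSO replicate 1 holding both profiles, by vorinostat replicate 1 standing apart, and by FPKM that carry no depth. In the EGFR-low libraries other than DMSO replicate 1 the profile was not that of untreated EGFR-low cells. Whether the values hold for those sorted cells was not tested. No protein or histone acetylation values were analysed here.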
